A study of Homo sapiens with 9 samples.

Results

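Mitochondrial ribosomal proteins were described in the human glioma line U87, an established cell line, as the genes with a symbol of MRPL or MRPS followed by digits and an optional letter, with pseudogenes and antisense symbols left out. The array held 75 such genes among 19775 named genes, 48 with an MRPL symbol and 27 with an MRPS symbol, and all 75 were bright enough to be tested. Where a gene had several probe sets, the one with the highest average log2 signal across the 9 arrays stood for it. MRPL53, MRPS24 and MRPS36 were not analysed here. The cells had been transfected, by Lipofectamine RNAiMAX, with 50 nM of a miR-376a*A, miR-376a*G or control duplex, and RNA was taken 72 h later, with 3 biological replicate arrays in each group. The 3 groups share the cell line, the transfection reagent and the time, and the labels name no genotype or further agent. ADAR enzymes can turn an adenosine of this microRNA's precursor into inosine, read as guanosine, and the duplexes named A and G are the unedited and the edited version.

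Mitochondria carry their own ribosome, which makes the few proteins encoded by mitochondrial DNA, all of them core subunits of the respiratory chain and ATP synthase. Its ribosomal RNAs come from mitochondrial DNA, but every one of its proteins is encoded in the nucleus, made in the cytosol and imported. Some of these proteins descend from bacterial ribosomal proteins and others are found only in mitochondrial ribosomes. The symbols do not always give the subunit, since MRPS30 and MRPS18A sit in the large subunit.

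The microRNA is shown because its seed, bases 2 to 8 from the 5′ end, is the stretch that pairs with target messengers and is in capitals here. RefSeq (GRCh38.p14, chromosome 14, plus strand) holds 2 mature 5p microRNAs of this name, at chr14:101040788-101040809 and chr14:101040080-101040100. The labels give neither the sequence of the transfected duplexes nor which of these genes they follow.
hsa-miR-376a-5p: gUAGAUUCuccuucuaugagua
hsa-miR-376a-2-5p: gGUAGAUUuuccuucuauggu

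The promoters are shown because most members moved together. Of the 75 members, 67 had a RefSeq promoter (GRCh38.p14, 250 bases before to 50 bases after the start, the first listed start of each gene). The letters CCGGAAG, the core bound by ETS factors such as GABP, were searched on both strands. They were found in 28 of the 67 promoters (41.8%), against 10.7% of 27305 promoters and 14.2% of the 15843 promoters of protein-coding genes. Matches began between position -222 and position 8 relative to the start, and 27 of 37 lay within 60 bases of it. The following windows of 30 bases have the letters, or their reverse complement CTTCCGG, in capitals. They come from the minus strand for MRPL3, MRPL38, MRPL47, MRPS18A and MRPL43 and from the plus strand for MRPS12 and MRPL58, at chr3:131502986-131503015, chr17:75905075-75905104, chr3:179604660-179604689, chr6:43687805-43687834, chr10:100987498-100987527, chr19:38930927-38930956 and chr17:75012465-75012494.
MRPL3: ttgtaaaacgcaCCGGAAGtgggtccggcg
MRPL38: gtccaacgggcaCTTCCGGagccgggcgtc
MRPL47: cggcttgagacgCCGGAAGtgacgctatcg
MRPS18A: gggcgctacgttCCGGAAGcggaaatggac
MRPL43: gtcgtcccggaaCCGGAAGcctcgaggttt
MRPS12: cacggatagcgcCCGGAAGaggctagaagc
MRPL58: gatcggggcactCTTCCGGtagcagctcgc

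A second set of letters, AAGATGGC, the core bound by YY1, was found in 19 of the 67 promoters (28.4%), against 3.03% of all promoters and 3.91% of those of protein-coding genes. In 14 members it lay on the coding strand just after the start, with its first base at positions 7 to 36. Both sets of letters were found in 8 members and at least one of them in 39 of the 67. The letters GCATGCGC, part of the palindrome bound by NRF1, were found in 6 members (8.96%), MRPL17, MRPL22, MRPL32, MRPL52, MRPS18B and MRPS18C, against 3.27% of all promoters and 4.26% of those of protein-coding genes. Sets of letters could share bases where they adjoin, but in no member did a match of one set overlap a match of another. Windows of 30 bases with AAGATGGC in capitals are shown for MRPS30 (plus strand, chr5:44808948-44808977), MRPS18B (plus strand, chr6:30617851-30617880) and MRPL38 (minus strand, chr17:75904861-75904890), the last of which also holds the ETS letters above.
MRPS30: gaatcgcgggcaAAGATGGCggcggccagg
MRPS18B: tgggcgtacgtcAAGATGGCggcgtctgta
MRPL38: caggccggagggAAGATGGCggcgccctgg

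The deposited signals had been scaled, with a 2% trimmed mean of 100 on every array, so a difference says how a gene moved against the other probe sets, and in a bulk sample fewer cells of a kind and less RNA per cell cannot be told apart. Replicate 1 of miR-376a*A and replicate 1 of control, by their labels, stood apart from their groups. Across the 75 members, which are not independent replicates, log2 signal on miR-376a*A replicate 1 correlated at 0.871 and 0.875 with the other miR-376a*A arrays and at 0.975 and 0.985 with control replicates 2 and 3. For control replicate 1 the correlations were 0.892 and 0.882 with the other control arrays but 0.992 and 0.977 with the other two miR-376a*A arrays, replicates 2 and 3. Groups are given as labelled, and counts that involve these arrays are given again without them. All 8 glioma and mesenchymal markers listed were bright enough to be tested, with vimentin (VIM) signal between 2107 and 2975. Their summed signal was 11310 to 12340 with miR-376a*G, 12950 to 16020 in control and 14320 to 19210 with miR-376a*A. Among them CHI3L1 had signals of 112, 121 and 115 with miR-376a*G against 1250, 816 and 861 in control. It fell by 3.03 in log2 terms (limma, adjusted p = 1.3e-05). FN1 fell by 1.32 (limma, adjusted p = 3.7e-04), and the other listed glioma and mesenchymal markers, VIM included, were not called between these groups. Of 6 astrocyte markers 2 were bright enough to be tested. The glutamate transporter SLC1A3 had signals of 138, 167 and 143 with miR-376a*G against 347, 236 and 274 in control and fell by 0.92 in log2 terms (limma, adjusted p = 0.0024), and ALDH1L1 had 41.2, 42.9 and 41.4 against 27.4, 24.0 and 25.9 and rose by 0.68 (adjusted p = 0.020). The other 4, GFAP among them at 1.48 to 5.66, were too dim to test, and the summed signal of the list was 196 to 241 with miR-376a*G, 277 to 400.0 in control and 373 to 417 with miR-376a*A. Of 8 leukocyte, endothelial and epithelial markers on the array, PECAM1 (38.7 to 135) and KRT8 (25.6 to 45.8) were tested and not called between miR-376a*G and control. The others were too dim to test, among them the leukocyte markers PTPRC and CD14 between 0.76 and 8.46, and the list summed to 161 to 204 with miR-376a*G and to 96.0 to 208.5 in control. No listed marker was at 0 on all arrays of a group, and the part of these markers in the results was not tested.

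The first comparison set miR-376a*G against control and asks what the edited form changes. Transcripts of 55 of the 75 members rose and 2 fell, MRPL43 and MRPS28, by limma with an adjusted p under 0.05 over all 12587 tested genes. Of all tested genes 33.4% were called, 18% higher and 15.4% lower. The members' median log2 difference was 0.58, against 0.12 for all tested genes, and 71 of the 75 differences were above 0. Signal on all 3 miR-376a*G arrays lay above all 3 control arrays for 63 members and below them for 2, against 31.1% and 22.3% of tested genes. The 3 miR-376a*G arrays lay above all 6 other arrays for 62 members and below them for the same pair that fell, while the other 11 overlapped. The share of all tested genes that lay beyond all 6 other arrays was not counted, so this count describes the members only. Some technical readings differed between groups too. The log2 signal of the 3′ probe set of GAPDH minus that of its 5′ probe set is a sign of RNA quality. It was -0.19 to -0.14 with miR-376a*G, -0.12 to -0.08 in control and -0.17 to -0.10 with miR-376a*A. The same reading for ACTB overlapped between all groups. It was -0.18 to -0.17 with miR-376a*G, -0.21 to -0.13 in control and -0.21 to -0.15 with miR-376a*A. The part of these readings in the result was not tested. The mean log2 signal of the spiked hybridisation controls was 7.12 to 7.29 with miR-376a*G, 7.51 to 7.70 in control and 7.82 to 7.92 with miR-376a*A, and scaling to these controls gave 71 members that rose and 1 that fell, with 44.4% of tested genes called higher and 7.52% lower.

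**Figure D1:**
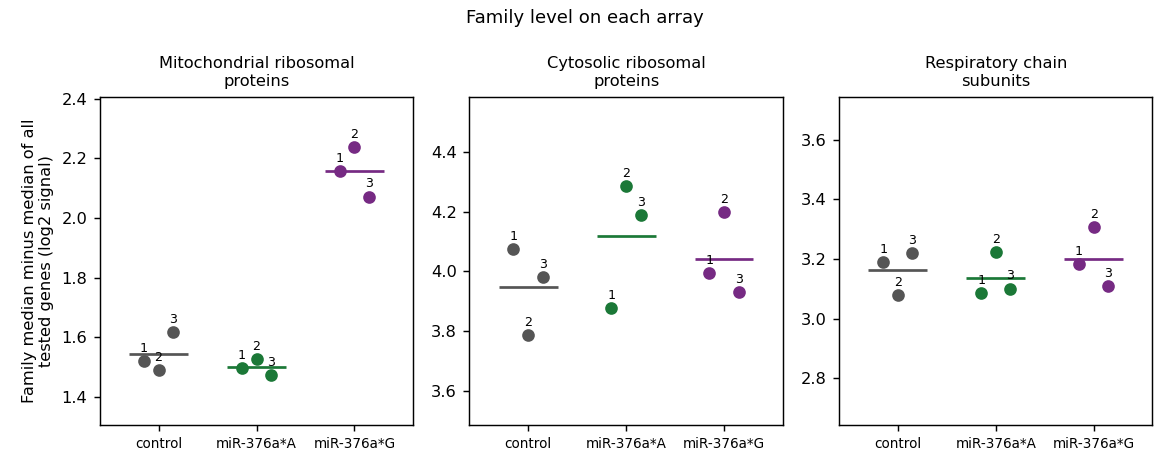
Median log2 signal of a gene family minus the median log2 signal of all tested genes, on each of the 9 arrays, for mitochondrial ribosomal proteins, cytosolic ribosomal proteins and respiratory chain subunits; points are arrays with their replicate number and lines are group means, and the 3 panels have different ranges of equal length. For the mitochondrial ribosomal proteins the miR-376a*G arrays lie between 2.07 and 2.24 and the other 6 between 1.47 and 1.62.

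Within an array, the median log2 signal of the members lay 2.16 ± 0.08 (SD, n = 3) above the median of all tested genes for miR-376a*G and 1.54 ± 0.07 above it for control. For miR-376a*A the gap was 1.50 ± 0.03. A factor that scales a whole array does not move this quantity. The miR-376a*G values of 2.16, 2.24 and 2.07 lay above every value of the other groups, where control gave 1.52, 1.49 and 1.62 and miR-376a*A gave 1.50, 1.53 and 1.47. Both arrays that stood apart lay inside this narrow range, as the plot of family level by array shows. Cytosolic ribosomal proteins, measured the same way, gave 4.04 ± 0.14, 3.95 ± 0.15 and 4.12 ± 0.21 for miR-376a*G, control and miR-376a*A, and respiratory chain subunits 3.20 ± 0.10, 3.16 ± 0.07 and 3.14 ± 0.08, with overlapping arrays in both families. Of the 59 cytosolic ribosomal protein genes tested 4 rose and 0 fell against control (median log2 difference 0.09), and of the 71 respiratory chain genes 9 rose and 5 fell (median 0.08). The differences between families were not tested.

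Members with the smallest p came from both subunits. MRPS2, a small subunit protein with a bacterial counterpart, had signals of 409, 406 and 396 on the miR-376a*G arrays, 129, 165 and 157 on the control arrays and 150, 119 and 118 on the miR-376a*A arrays. The edited group stood far above the other arrays, whose ranges overlapped. In log2 terms MRPS2 rose by 1.43 (SE 0.14, adjusted p = 1.2e-04), or 1.32 without control replicate 1. MRPL4, a large subunit protein, had signals of 361, 362 and 413 against 160, 193 and 155 in control, and rose by 1.16 (SE 0.13, adjusted p = 2.0e-04). The other MRPL4 probe sets were at 0.69, which was called, and at 0.09, which was not (limma, adjusted p = 0.70). MRPL38, which has no bacterial counterpart, had signals of 464, 571 and 552 against 230, 277 and 213 and rose by 1.14 (SE 0.13, adjusted p = 2.9e-04). On the probe sets that represent MRPL4 and MRPL38, the lowest miR-376a*G array lay well above the highest control array.

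MRPL58, a peptidyl-tRNA hydrolase that helps free stalled mitochondrial ribosomes and is also built into the large subunit, had signals of 557, 612 and 531 with miR-376a*G and 271, 304 and 330 in control. It rose by 0.91 (SE 0.12, adjusted p = 4.8e-04), with no overlap of the groups. MRPL35, MRPL39, MRPL13 and MRPL19, all of the large subunit, completed the 8 increases of smallest p, at 1.09, 0.68, 0.68 and 0.70 on the log2 scale, each with an SE between 0.09 and 0.15. MRPL35 was measured by 3 probe sets, and all of them rose (1.09, 1.12 and 1.42).

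**Figure D2:**
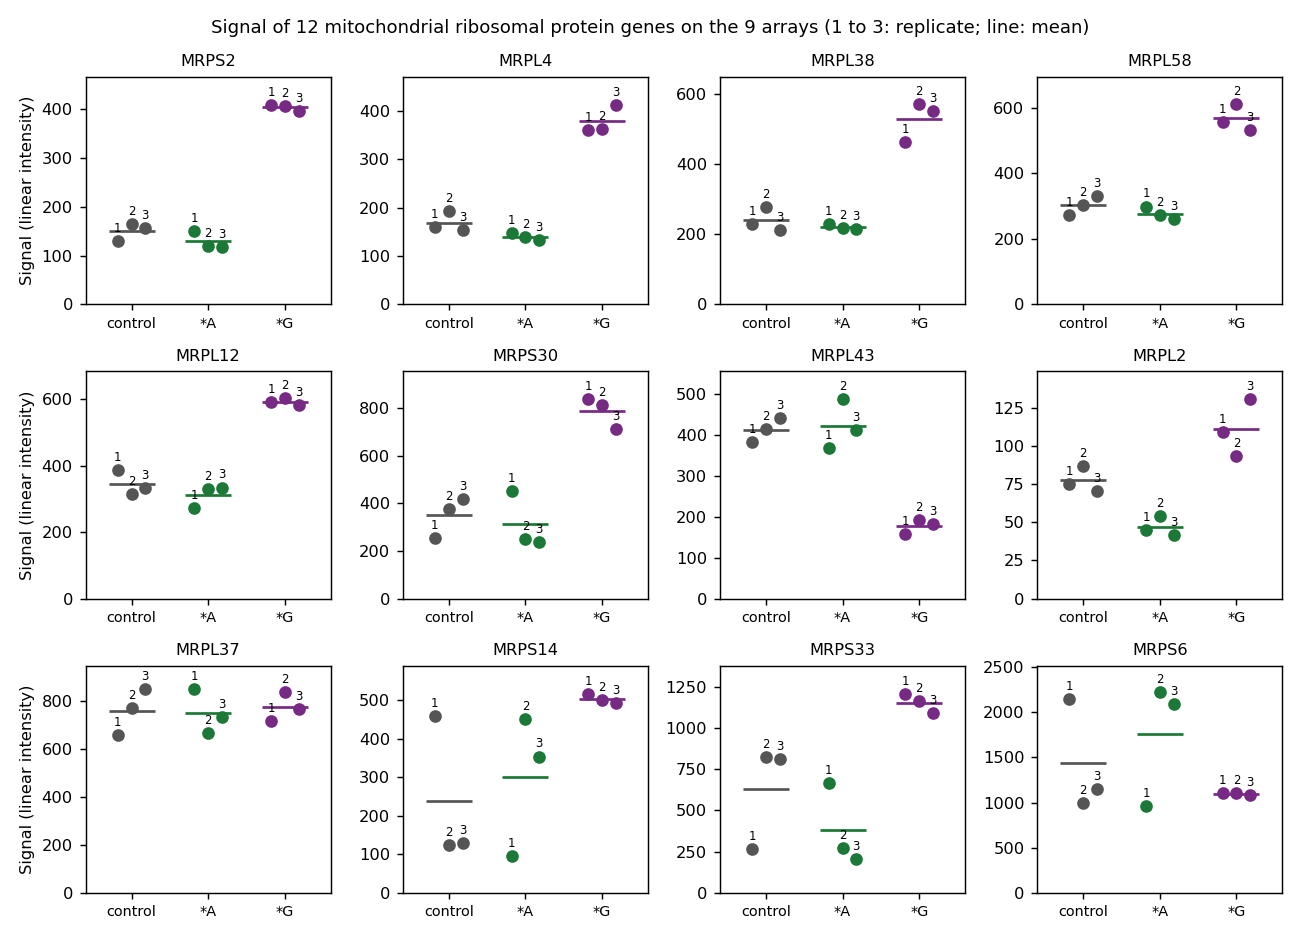
Deposited signal (linear intensity) of 12 mitochondrial ribosomal protein genes on each of the 9 arrays in control, miR-376a*A (*A) and miR-376a*G (*G); points are arrays with their replicate number and lines are group means. MRPS2, MRPL4, MRPL38, MRPL58, MRPL12 and MRPS30 are above all other arrays with miR-376a*G, MRPL43 is below them, MRPL37 overlaps, and MRPS14, MRPS33 and MRPS6 have replicate 1 of control and of miR-376a*A on opposite sides of their groups.

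Of 5 further large subunit proteins 3 were called. MRPL12, the counterpart of the bacterial L7/L12 stalk protein that recruits translation factors, had signals of 591, 605 and 583 against 386, 314 and 332 in control and rose by 0.79 (SE 0.12, adjusted p = 0.0012). MRPL3, the counterpart of a bacterial protein near the catalytic centre, rose by 0.57 (SE 0.12, adjusted p = 0.0061). MRPL2, another such protein, had signals of 109, 93.5 and 131 against 75.2, 87.1 and 70.9, which do not overlap, and its difference of 0.50 (SE 0.17) missed the threshold (adjusted p = 0.052). Its other, dimmer probe set was at -0.07 (adjusted p = 0.84). MRPL41, a large subunit protein without a bacterial counterpart, rose by 0.56 (SE 0.17, adjusted p = 0.031). MRPL44, which has a ribonuclease III-like fold, had signals of 416, 440 and 380 against 292, 366 and 421, so that the groups overlapped, with a difference of 0.21 (SE 0.18, adjusted p = 0.39).

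In the small subunit, MRPS12, whose bacterial counterpart forms part of the decoding centre, had signals of 860, 955 and 904 against 601, 650 and 564 and rose by 0.58 (SE 0.13, adjusted p = 0.0095). MRPS16, a protein in which inherited mutations cause respiratory chain deficiency, had signals of 612, 702 and 631 against a range of 282 to 383 in control and rose by 0.91 (SE 0.19, adjusted p = 0.0066). Its other, dimmer probe set was at 0.58 and was not called (limma, adjusted p = 0.070). MRPS22, another gene of inherited respiratory chain deficiency, rose by 0.48 (SE 0.10, adjusted p = 0.0067). The 3 paralogues of bacterial S18 all rose, MRPS18B by 0.90 (SE 0.13), MRPS18C by 0.67 (SE 0.19) and MRPS18A by 0.39 (SE 0.13), at adjusted p of 9.0e-04, 0.022 and 0.042. Of these paralogues MRPS18A sits in the large subunit. MRPS30, which despite its symbol is a large subunit protein, had signals of 838, 815 and 713 against 256, 378 and 417 and rose by 1.20 (SE 0.26, adjusted p = 0.0079). Without both arrays that stood apart the MRPS30 difference was 0.98, and its 2 dimmer probe sets were at -0.07 and -0.10 and were not called.

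Of the members that fell, MRPL43, a large subunit protein without a bacterial counterpart, had signals of 158, 192 and 182 with miR-376a*G, 384, 416 and 441 in control and 367, 489 and 413 with miR-376a*A. Its miR-376a*G arrays were below all others, and in log2 terms it fell by 1.22 (SE 0.14, adjusted p = 2.4e-04). A second MRPL43 probe set gave 112, 118 and 96.9 against 499, 475 and 470 in control, a difference of -2.14, while the remaining, dimmer one was at 0.16 and was not called (adjusted p = 0.43). The MRPL43 gene overlaps SEMA4G in the RefSeq models, and the MRPL43 promoter holds the same ETS letters as many members that rose. MRPS28, a small subunit protein, had signals of 332, 331 and 328 with miR-376a*G against 591, 501 and 468 in control and fell by 0.65 (SE 0.14, adjusted p = 0.0069). It overlaps the readthrough gene TPD52-MRPS28.

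**Figure D3:**
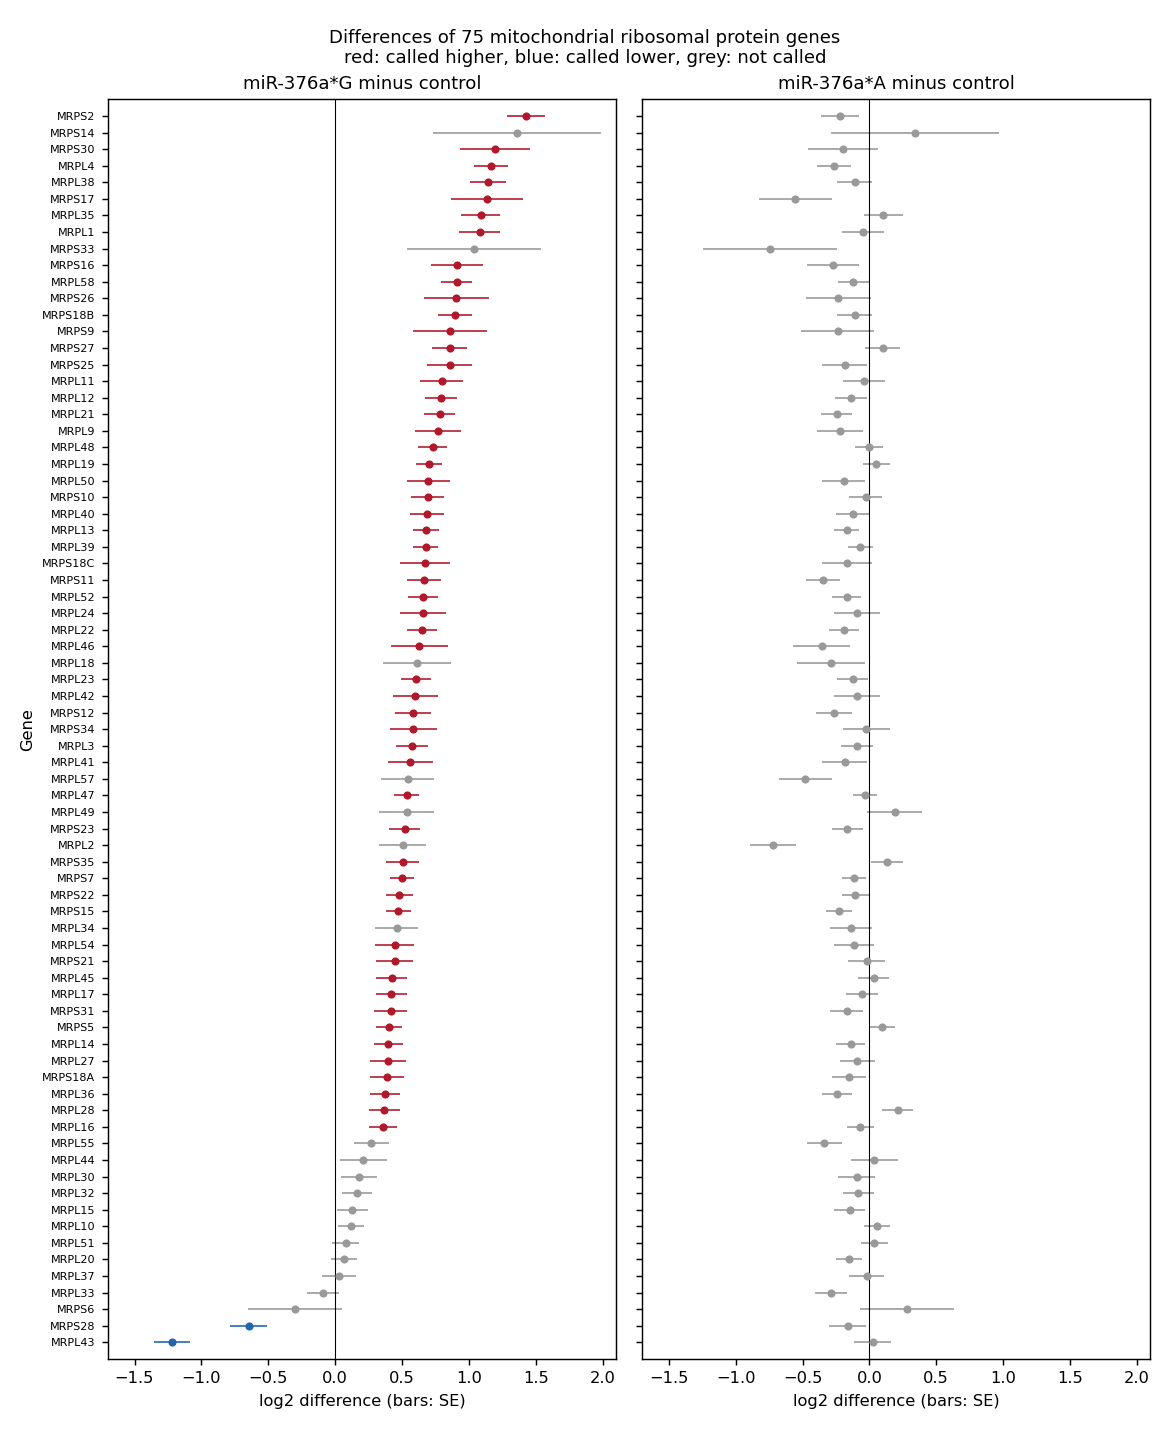
Log2 difference of each of the 75 genes for miR-376a*G minus control (left) and miR-376a*A minus control (right), with bars of 1 standard error; genes are ordered by the left panel, red marks genes called higher, blue genes called lower and grey genes not called. On the left 55 genes are called higher and 2 lower, and on the right none is called.

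By name, 32 of 48 MRPL genes rose and 1 fell (median 0.55), and 23 of 27 MRPS genes rose and 1 fell (median 0.66). Of 43 members with a bacterial counterpart 31 rose and 1 fell (median 0.58), and of 32 without one 24 rose and 1 fell (median 0.57). The list used for this split counted MRPS18C as having a counterpart but not its paralogues MRPS18A and MRPS18B. Neither split was tested. The 75 differences ran from -1.22 to 1.43 on the log2 scale, with the middle of the distribution between 0.40 and 0.78, and 8 called members differed by more than 1, as did 13% of tested genes. The plot of all differences shows that 18 members were not called. Among these MRPL37 had signals of 716, 839 and 768 with miR-376a*G and 659, 773 and 853 in control, a difference of 0.03 (SE 0.13), and was named after its values were seen. The CCGGAAG letters were in the promoters of 22 of the 51 members that rose and had a promoter listed, and in 6 of the 16 other members. The median log2 difference of the members with these letters was 0.53, against 0.63 for those without. The AAGATGGC letters were in 16 of the 51 and 3 of the 16, with medians of 0.60 with them and 0.57 without. For GCATGCGC the counts were 5 of the 51 and 1 of the 16, with medians of 0.65 and 0.57. None of these splits was tested.

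Arrays that stood apart set the standard error of several members. MRPS14, a small subunit protein named here, with MRPS33, MRPS6 and MRPS17, after its values were seen, had signals of 515, 501 and 493 with miR-376a*G and 460, 125 and 130 in control. Control replicate 1 was near the miR-376a*G arrays, and the difference of 1.36 (SE 0.63) was not called (adjusted p = 0.13). Without both arrays that stood apart MRPS14 differed by 1.97 and was called (adjusted p = 1.4e-07). MRPS33 had signals of 1204, 1163 and 1092 with miR-376a*G and 265, 824 and 810 in control, a difference of 1.04 (SE 0.50, adjusted p = 0.14) that became 0.49 without both arrays (adjusted p = 0.0030). Over the family, 63 members then rose and 2 fell against control (median 0.52), where 31.2% of tested genes were called higher and 25% lower, and all 57 members called with every array were called again in the same direction. MRPS14, MRPS33, MRPL2, MRPL18, MRPL30, MRPL34, MRPL49 and MRPL57, named after their values were seen, were added.

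Scaling changed how many members passed. With each array centred on its median over all probe sets, 16 members rose and 2 fell (median 0.35), all 18 of them called in the same direction as deposited, while 8.48% of tested genes were called higher and 20.6% lower. The array median was a dim signal, 21.7 to 24.6 on the miR-376a*G arrays and at most 22.0 on the others, and centring on it moved the median of all tested genes from 0.12 to -0.12. The 16, named after their values were seen, were MRPS2, MRPL4, MRPL38, MRPL35, MRPL1, MRPL58, MRPS18B, MRPS27, MRPL11, MRPL12, MRPL21, MRPL48, MRPL19, MRPL40, MRPL13 and MRPL39, from 1.20 for MRPS2 to 0.45 for MRPL39, with MRPL43 at -1.45 and MRPS28 at -0.88. Centred on the median of the tested genes, 47 rose and 2 fell (16.7% and 15.5% of tested genes). Scaled to the poly-A controls 68 rose and 1 fell (36.3% and 9.07%). The median of all tested genes was 0.51 with hybridisation scaling and 0.40 with poly-A scaling. Without both arrays that stood apart and centred on the median of all probe sets, 27 rose and 4 fell (15% and 37.8%), MRPL37 and MRPL33 joining the pair that fell. Relative to the median of all tested genes the members' median was 0.47 under each of these 4 scalings and as deposited, by construction, and 0.54 after quantile normalization.

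**Figure D4:**
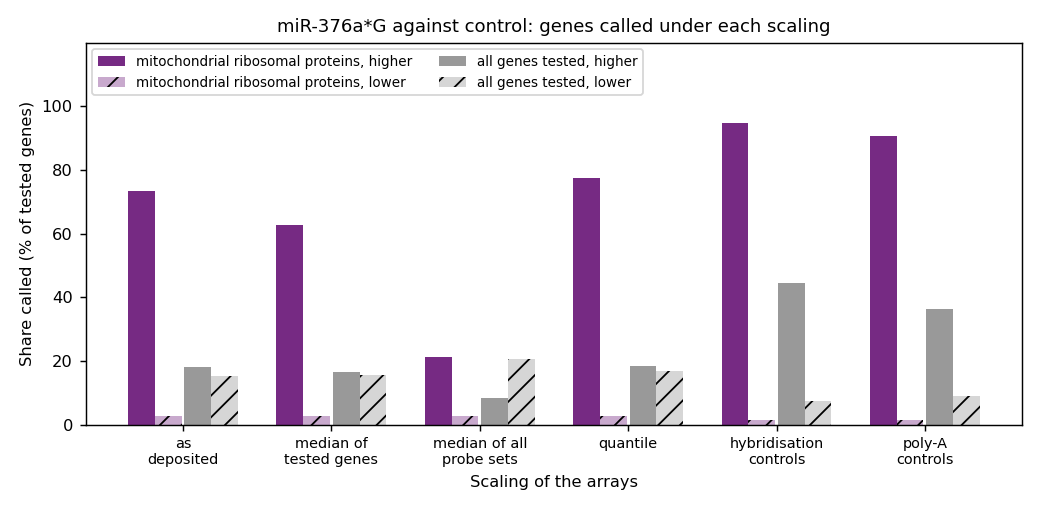
Share of genes called higher or lower between miR-376a*G and control, in percent of the genes tested, for the 75 mitochondrial ribosomal proteins and for all 12587 tested genes, under 6 scalings of the arrays. The members called higher number 55 as deposited and 16 after centring on the median of all probe sets, and in each scaling their share is above that of all genes.

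Fewer members rose when 1 array of either group was left out and fewer arrays were fitted, 39, 36 and 39 without miR-376a*G replicate 1, 2 and 3 and 49, 37 and 46 without control replicate 1, 2 and 3. The share of all tested genes called in these fits is not given here, so the lower counts cannot be read as particular to the members. Other probe sets of the same genes had the same sign in most cases, though many were not called. Of 29 members with at least 2 tested probe sets, 53 other probe sets were tested and 41 had the sign of the probe set that represents the gene. In 19 of the 29 members all tested probe sets had the same sign. These other probe sets were called in a separate fit over all single-gene probe sets that passed the brightness filter. The share of all probe sets called in that fit is not given, and the 33.4% above is that of genes in the main fit. Of the 53 other probe sets 21 were called, and 20 of the 21 had the sign of the representing probe set. The exception was MRPL19, represented by a probe set with signals of 382, 413 and 375 against 237, 240 and 242, which rose by 0.70. A dimmer MRPL19 probe set had signals of 19.9, 18.2 and 20.2 against 65.1, 43.7 and 38.9 and was at -1.26 (adjusted p = 0.0031).

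**Figure D5:**
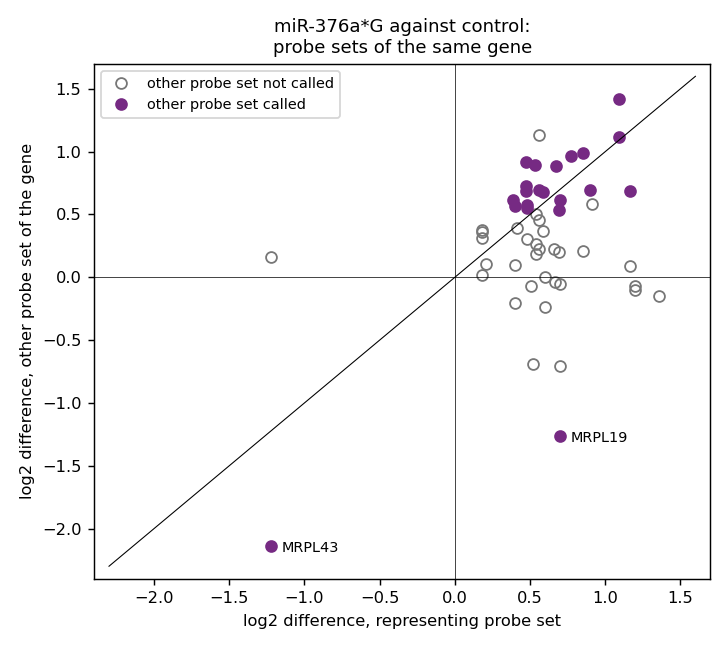
Log2 difference between miR-376a*G and control for each further tested probe set of a member (vertical axis) against that of the probe set representing the gene (horizontal axis); filled points are further probe sets called on their own, and the line marks equal differences. Of 53 points 41 have the same sign on both axes, and MRPL19 is the filled point below 0 with a representing probe set above 0.

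The second comparison set miR-376a*A against miR-376a*G and asks where the unedited and edited forms differ. Signal was lower with miR-376a*A for 60 of the 75 members and higher for 2, MRPL43 and MRPS28, where 38.2% of tested genes were called, 16.4% higher and 21.8% lower. The members' median log2 difference was -0.72, against -0.14 for all tested genes. This comparison shares the miR-376a*G arrays with the one above. The groups did not overlap for 64 members that were lower and 2 that were higher with miR-376a*A, against 31.8% and 21.8% of tested genes.

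In log2 terms MRPS2 fell by 1.65 from miR-376a*G to miR-376a*A (SE 0.14, adjusted p = 5.6e-05), MRPL4 by 1.43 (SE 0.13, adjusted p = 6.6e-05) and MRPL38 by 1.25 (SE 0.13, adjusted p = 1.7e-04). The other MRPL4 probe sets were at -0.81, which was called, and at -0.17, which was not (adjusted p = 0.41). MRPL58 fell by 1.03 and MRPL13 by 0.85. MRPL21, a large subunit protein, had signals of 312, 389 and 374 with miR-376a*A and 715, 795 and 682 with miR-376a*G and differed by -1.03 (SE 0.12, adjusted p = 2.2e-04). MRPS11, a small subunit protein with a bacterial counterpart, had signals of 429, 386 and 377 against 866, 739 and 798 and differed by -1.01 (SE 0.13, adjusted p = 3.7e-04). In both the lowest miR-376a*G array was above the highest miR-376a*A array. Of the members called, 18 differed by more than 1, where 15.4% of tested genes did.

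MRPL2, which had missed the threshold between miR-376a*G and control, had signals of 45.0, 54.2 and 41.6 with miR-376a*A and differed by -1.22 from miR-376a*G (SE 0.17, adjusted p = 7.4e-04). Its other, dimmer probe set was at -0.08 and was not called (adjusted p = 0.83). MRPL12, MRPL3 and MRPL41 were at -0.93, -0.66 and -0.75, and MRPS12, MRPS16, MRPS22 and MRPS30 at -0.85, -1.18, -0.59 and -1.39, all called. The S18 paralogues MRPS18A, MRPS18B and MRPS18C were called too, at -0.54, -1.01 and -0.84. MRPL44 was not called (-0.17, adjusted p = 0.46). MRPL43 was higher with miR-376a*A by 1.25 (SE 0.14, adjusted p = 2.0e-04) and MRPS28 by 0.48 (SE 0.14, adjusted p = 0.022). MRPS28 lost its call without miR-376a*A replicate 2 or without any one of the miR-376a*G arrays, and 30 members were called lower after centring on the median of all probe sets, where 10% of tested genes were lower and 23.6% higher.

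The third comparison set miR-376a*A against control and asks what the unedited form changes. As the arrays are labelled, 0 of the 75 members were called by limma, as were 0% of tested genes, and 6 members had an unadjusted p under 0.05, against 463 of all 12587. The members' median log2 difference was -0.12, against -0.02 for all genes, with 61 members below 0 and 14 above. The miR-376a*A arrays lay below the control arrays for 6 members and above them for 0, against 3.58% and 2.57% of tested genes. MRPL2 had the smallest p, with signals of 45.0, 54.2 and 41.6 with miR-376a*A against 75.2, 87.1 and 70.9 in control, a difference of -0.72 (SE 0.17, adjusted p = 0.89) and no overlap of the groups. A second, dimmer MRPL2 probe set gave 29.8, 44.0 and 28.5 against 34.0, 44.3 and 34.0, which overlap. MRPS11 (-0.35), MRPL55 (-0.34), MRPL57 (-0.48) and MRPL33 (-0.29) followed. MRPL33, a small protein of the large subunit with a bacterial counterpart, overlapped between groups, with signals of 856, 1029 and 761 against 1105, 1072 and 1027.

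MRPL3, MRPL12 and MRPS12 were at -0.09, -0.14 and -0.26 between miR-376a*A and control, with overlapping arrays. MRPL41, MRPL44 and MRPL58 were at -0.19, 0.04 and -0.12, and MRPS16, MRPS22 and MRPS30 at -0.27, -0.11 and -0.20. The S18 paralogues MRPS18A, MRPS18B and MRPS18C were at -0.15, -0.11 and -0.17. None of these 12 was called, and the adjusted p of every member was between 0.89 and 0.99. Without both arrays that stood apart, MRPL3, MRPS16, MRPS22 and MRPS30 fell, by 0.30, 0.61, 0.24 and 0.71, and the other 8 were not called.

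Without both arrays that stood apart, 22 members fell and 7 rose between miR-376a*A and control, where 22.9% of tested genes were called lower and 19% higher. The arrays left out were chosen from the same data, so those p-values are no separate evidence. Centred as well on the median of all probe sets, 29 fell and 3 rose (26.6% and 12.7% of tested genes), and centred on the tested genes 16 fell and 8 rose (18.1% and 24.1%). As deposited but without both arrays, the members' median was -0.20 and that of all genes 0.01. MRPS33, a small subunit protein without a bacterial counterpart, had signals of 665, 274 and 206 with miR-376a*A and 265, 824 and 810 in control, so that replicate 1 of each group lay with the other group. Without them it fell by 1.78 (SE 0.12, adjusted p = 1.8e-06). MRPS14 had signals of 95.1, 451 and 354 with miR-376a*A against 460, 125 and 130 and was the opposite, with a rise of 1.64 once replicate 1 of both groups was left out. MRPS6 also rose then, by 1.00, from signals of 960, 2225 and 2086 with miR-376a*A and 2148, 998 and 1154 in control, and MRPS17 fell by 1.06. These 4 were the members that differed by more than 1. MRPS6 overlaps the transporter gene SLC5A3 in the RefSeq models, and whether its probe set also reads that transcript was not tested.

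Other genes of mitochondrial translation, taken from lists, were read beside the members, again for miR-376a*G and control. Of 13 mitochondrial translation factors tested 5 rose and 0 fell (median 0.38). The ribosome recycling factor MRRF had signals of 220, 230 and 218 against 114, 119 and 132 and rose by 0.87 (SE 0.12, adjusted p = 8.6e-04). MTRES1, which helps rescue stalled mitochondrial ribosomes, rose by 0.71, and the elongation factors TSFM and TUFM rose by 0.39 and 0.34. Of 24 tested factors of ribosome assembly 7 rose and 2 fell (median 0.32). The ribosomal RNA methyltransferases MRM2 and MRM3 rose by 0.73 and 1.04 and the matrix protein C1QBP by 0.73, while AFG3L2, a protease that matures the member MRPL32, had signals of 342, 337 and 298 against 552, 608 and 655 and fell by 0.89 (SE 0.12, adjusted p = 5.6e-04). MRPL32 itself, named for that reason, was at 0.16 and was not called (adjusted p = 0.30). The other assembly gene that fell was METTL15 (-0.87), named after its values were seen.

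Of 20 tested mitochondrial aminoacyl-tRNA synthetases and amidotransferase subunits, 6 rose and 1 fell (median 0.40), with QRSL1 at 0.87, AARS2 at 0.70, KARS1 at 0.28 and GARS1 at -0.34. Of 19 tested genes of mitochondrial transcription and genome maintenance 6 rose and 1 fell (median 0.45). The RNA-binding SLIRP rose by 0.50, the coactivator PPRC1 by 0.75, the nuclear receptor ESRRA by 0.60 and the transcription factor NRF1 by 0.51, while POLRMT, the mitochondrial RNA polymerase, was at -0.53 and was named after its values were seen. The 4 mitochondrial ribosomal proteins that carry other names, PTCD3, GADD45GIP1, CHCHD1 and DAP3, were at 0.61, 0.28, 0.27 and 0.12, and 0 of them were called by limma, 1 with an unadjusted p under 0.05. Beside the 33.4% of all genes called, 38.5%, 37.5%, 35% and 36.8% of the translation factor, assembly, synthetase and transcription lists were called, and 76% of the members were.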

How the data were processed

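Gene expression was measured on 9 arrays of U87 cells, 3 per group by their labels. The authors deposited 1 linear intensity per probe set (54675). The submitters' processing notes name GCOS 1.4.0.036; how probes were summarised, and on which genome build, is not given in the sources used here. Of the probe sets, 41097 had 1 gene and 1801 several in the platform's probe table, whose annotation can be old, and only the first kind was used. The 12587 genes brighter than the array median on 3 or more arrays were tested. Log2(signal + 1) was fitted with limma 3.58.1 in R 4.3.3 over all 9 arrays, with 1 coefficient per group, 6 residual degrees of freedom, an intensity trend and two-sided Benjamini-Hochberg adjusted p-values over all tested genes, called under 0.05. Other probe sets of members were read from a separate fit of the same form. It covered all single-gene probe sets that passed the same filter, with its own adjustment. Adding 1 makes the log2 differences of dim genes too small. The number of arrays limits the precision, and where replicates are not separate cultures the p-values measure only the spread between these arrays. The fit was tested on simulated data.

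Named members were the up to 8 with the smallest p in each direction among called members of a comparison, the 5 with the smallest p where none was called, and 13 followed in each comparison, and from each gene list up to 4 called genes with the smallest p. The members and lists were chosen with earlier results of these data known. Of the marker lists against control with miR-376a*G, 0 of 8 glioma genes rose and 2 fell, 1 of 2 tested astrocyte genes rose and 1 fell, and 0 of 2 tested leukocyte, endothelial and epithelial genes were called by limma, 0 with an unadjusted p under 0.05; their part in the results was not tested. Alternatives covered scaling, pseudocount, filter, probe sets, replicate block and left-out arrays.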

Additional observations from a re-analysis of the deposited data

How the results depend on the processing

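Members called higher between miR-376a*G and control numbered 55, and 16 with each array centred on its median, 27 with that centring and without both arrays that stood apart, 36 with the replicate block and 36 to 60 with 1 array left out. For the replicate block and the left-out single arrays, here and below, the share of all tested genes called is not given. Those called lower numbered 2, and 1 with hybridisation or poly-A scaling and 4 without both arrays and centred; leaving out 1 array gave 2 each time. The median of 0.58 was 0.35 centred, 0.98 and 0.87 with the hybridisation and poly-A controls, 0.48 with the mean of a gene's probe sets, 0.52 without both arrays, 0.21 without them and centred, and 0.52 to 0.61 with 1 array left out.

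With miR-376a*A set against miR-376a*G, 30 members were lower when centred, against 60, and 49 to 61 with 1 array left out. The 2 higher became 1 with either control scaling and the replicate block, and 1 to 3 with 1 array left out. The median of -0.72 was -0.47 centred, -1.39 and -0.90 with the control scalings, -0.61 with the mean of probe sets, -0.49 without both arrays and centred, -0.65 centred on the tested genes, -0.59 with that and without both arrays, and -0.74 to -0.66 with 1 array left out.

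Between miR-376a*A and control, 0 members were called by limma under any setting that kept at least one of both arrays. Without both arrays 7 were higher and 22 lower, 3 and 29 when also centred, and 8 and 16 when centred on the tested genes instead. The median of -0.12 was -0.39 and -0.018 with the control scalings, -0.20 without both arrays, -0.31 when also centred, and -0.16 to -0.08 with 1 array left out.

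With the mean of probe sets 2 called members turned sign in each comparison with miR-376a*G. Against control MRPL19 went from 0.70 to -0.42 (adjusted p = 0.035 by limma) and MRPS23 from 0.52 to -0.09 (adjusted p = 0.60), and between both microRNA forms MRPL19 went from -0.65 to 0.31 (adjusted p = 0.089) and MRPS23 from -0.69 to 0.10 (adjusted p = 0.52). With hybridisation scaling the difference of MRPS28 between both microRNA forms turned to -0.18 (adjusted p = 0.33). The cause of these changes was not tested. Over the named members, 1248 alternative values kept their side of the threshold, 54 lost a call, 38 gained one and 2 were counted as reversed. Differences that were not called could change sign without being counted as reversed. MRPL44 between miR-376a*A and control, for example, went from 0.04 to -0.11 without miR-376a*A replicate 1. Leaving out both arrays and centring on the tested genes were chosen after the data were seen. Same-numbered arrays had deviations from their group correlated at -0.881 to 0.046. The value of -0.881 was that of replicate 1 of miR-376a*A and of control, the arrays that stood apart. Because these arrays weigh on the deviations of their groups, the values cannot show whether the numbers paired the arrays. No gene of the family was too dim to test, though single probe sets were.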
